A study of Homo sapiens with 9 samples.

Results

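Dimethyl succinate (DMS, an ester of succinate that crosses membranes) was added to CA46 cells in which MYC had been targeted by shRNA, and the RNA-seq library of these cells was compared with the library of Myc shRNA cells kept in PBS. The comparison uses 2 of the 9 samples of the series, the libraries labelled shMyc+DMS and shMyc-DMS, joined on gene name and locus. Genes of growth, biosynthesis and mitochondria were higher with DMS, MYC itself among the most, and genes of antigen presentation, NF-kB and B cell identity were lower. The level of MYC differed between the 2 libraries, so a response to DMS and a response to the level of MYC cannot be told apart here.

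CA46 is an established human B cell line from a Burkitt lymphoma, in which a translocation drives MYC. Cells were infected with a virus carrying a non-targeting control shRNA (NTC) or an shRNA against Myc, the infection lasting 48 h, and were exposed to PBS or to 10 mM DMS. The labels of the samples give an exposure of 20 h before harvest, whereas the design text of the series places DMS in the 48 h of infection, so the length of exposure behind the DMS comparison is not settled. The 4 RNA-seq groups are therefore NTC in PBS, NTC in DMS, Myc shRNA in PBS and Myc shRNA in DMS, with 1 library each. The labels give no selection of infected cells and no separate cultures, and 4 ChIP-seq samples with 1 input sample were not analysed here. The 2 control shRNA libraries stand beside each value below, because they share no library with the knockdown pair.

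MYC is a transcription factor that pairs with MAX and binds the E-box CACGTG in promoters, where it raises transcription of genes for ribosome assembly, nucleotide and amino acid synthesis and mitochondrial import. Succinate is oxidised by succinate dehydrogenase in the tricarboxylic acid cycle, and when it accumulates it competes with 2-oxoglutarate at dioxygenases that demethylate histones and hydroxylate proteins. The transcription factor NRF2, held down by KEAP1 until electrophiles modify it, drives antioxidant genes from antioxidant response elements. In B cells, interferon, CIITA and NF-kB keep up the genes of antiviral defence, antigen presentation and activation.

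Levels are FPKM, a fragment number divided by gene length and depth, rescaled between libraries and written in the order NTC in PBS, NTC in DMS, Myc shRNA in PBS and Myc shRNA in DMS. A log2 ratio is DMS over PBS on log2(FPKM + 1), a scale that shrinks the ratios of weakly expressed genes, and a gene counts as 2-fold higher or lower when that ratio is at least 1 in size; other values are given by their side of 0. Whether the 4 libraries were normalised in 1 run is not given: the deposited column of the knockdown library with DMS is headed as a second value and those of the other 3 as a first value, which bears on each ratio of the knockdown pair. The depth of the libraries is not given in the sources used here. From the step between neighbouring low values, 1 FPKM was estimated to stand for 22.7 to 25.8 fragments per kilobase, an estimate that the chosen window limits. B cell markers were high in all 4 libraries, with CD79A, a chain of the B cell receptor, at 1065, 708, 2547 and 1576 FPKM and CD20 (MS4A1) at 247, 157, 941 and 646 FPKM. Of 38 markers of other cell types 12 were listed at 0 in all 4 libraries, among them the myeloid S100A8, the T cell CD8A and the erythroid HBB, and the levels of others are given beside the immune genes below. Features with no gene name took 15.7%, 14.3%, 25.2% and 22.4% of summed FPKM and were left out.

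MYC mRNA was 1868, 1651, 17.1 and 625 FPKM (chromosome 8, 128748315 to 128753680, hg19). The knockdown library in PBS therefore held 0.913% of the MYC mRNA of its control, and the knockdown library in DMS held 37.9% of its own. With DMS the knockdown cells had 36.7-fold more MYC mRNA than without, a log2 ratio of 5.12, while the same ratio in the NTC pair was -0.18. In RNA from bulk cells, a smaller share of cells with the knockdown and a smaller reduction in each cell cannot be told apart.

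Many other genes lay near the same share of control as MYC. Among genes averaging 5 FPKM or more, 33 stood at no more than 5% of control in the PBS pair of libraries (Myc shRNA over NTC). MYC itself is counted among the 33, so its own share enters the values that follow. In the DMS pair, which shares no library with the PBS pair, these 33 had a median of 38.7% of control. The quartiles were 36.1% and 40.4%. Of the 33 genes 28 lay between 30 and 50% of control in DMS, a range that takes in the 37.9% of MYC. The floor of 5 FPKM was averaged over all 4 libraries, the knockdown in DMS included. That favours genes with higher shares in DMS, so the count is a description and not a test. HSD11B2, a cortisol-inactivating enzyme, stood at 0.256% of control in PBS, where the knockdown library had 0.0207 FPKM, and at 42.7% in DMS. The argininosuccinate synthase ASS1 stood at 0.705% and 39.7%, and the small GTPase RAC3 at 4.04% and 39.4%. The range ran from 12.3% for the antisense RNA IQCH-AS1 to 55.9% for FOXP4-AS1, another antisense RNA. Strand in the counting is not given, so reads of an antisense RNA and its partner cannot be told apart.

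The share in DMS rose with the share in PBS along the whole range. Genes at 5 to 10% of control in PBS (54 genes) had a median of 41.3% in DMS, genes at 10 to 25% (410 genes) 48.2%, and genes at 25 to 50% (1264 genes) 59.5%. The 1832 genes at 80 to 120% of control in PBS had a median of 98.3% in DMS. Genes above control in PBS had smaller shares in DMS. The medians were 132% in DMS and 149% in PBS for the 1742 genes at 120 to 200%, and 215% and 259% for the 1016 genes at 200 to 400%. For the 249 genes at 400 to 800% the medians were 469% and 512%. The order turned for the 33 genes above 800%, with a median of 1361% in DMS and 872% in PBS. Whether the level of MYC moves these shares was not tested.

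**Figure D1:**
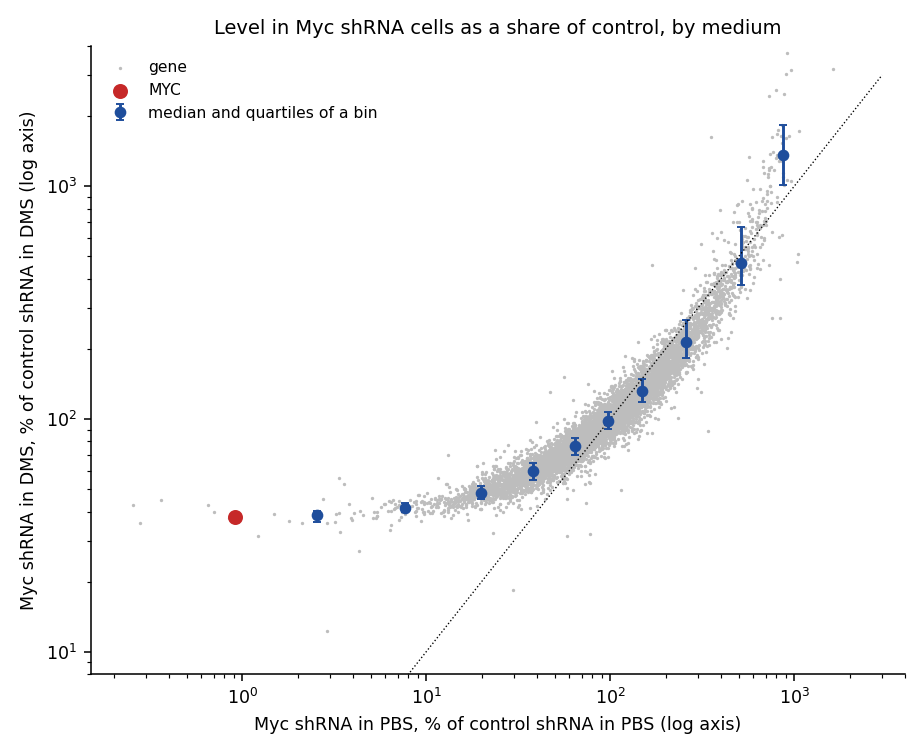
Level of each gene in Myc shRNA cells as a percent of NTC cells, in PBS (horizontal, log axis) and in DMS (vertical, log axis), for genes averaging 5 FPKM or more. Grey points are genes, blue points and bars the median and quartiles of a bin, the red point is MYC, and the dotted line marks equal shares; the genes at the left edge level off near the 37.9% of MYC.

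Over 11187 genes, kept because they averaged 1 FPKM or more, 552 were at least 2-fold higher with DMS in the knockdown cells (4.93%) and 51 were at least 2-fold lower (0.456%). In NTC cells DMS left 9 genes higher (0.0805%) and 44 lower (0.393%). The SD of log2 ratios across genes was 0.51 in the knockdown pair and 0.24 in the NTC pair, and the medians of all genes were 0.005 and -0.04. The genes on the higher side thus differed between the pairs in number much more than those on the lower side. Differences between single libraries stand without replicates, so no p-value is given for them. On the knockdown side 50.5% of genes were above 0 and 49.5% below it, and in the NTC pair 41.3% were above and 58.7% below, the shares against which the list counts below can be read.

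The only fit that leaves a residual degree of freedom, limma with virus and medium as additive terms over the 4 libraries, tests DMS averaged over both viruses and not the response of the knockdown cells. It called 0 genes at an adjusted p of 0.05 (Benjamini-Hochberg over 11187 genes), with 1426 genes at an unadjusted p under 0.05 and a lowest adjusted p of 0.201. With a pseudocount of 5 in place of 1 the same limma fit called 82 genes that rose and 75 that fell. Among these were the quinone reductase NQO1 (log2 coefficient 0.96, SE 0.15, adjusted p = 0.00742 by limma), the adenosine deaminase ADA (0.94, SE 0.15, adjusted p = 0.00857 by limma) and the chemokine CCL17 (-1.54, SE 0.19, adjusted p = 0.00317 by limma). Each lay on the same side of 0 in both pairs. The fit takes disagreement between the pairs as error, so a call favours such agreement, which is no separate support. The 3 were picked after their values were seen.

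The genes with the highest ratios were far below NTC in the knockdown cells in PBS, and several were nearly silent there. A low level in that library raises the ratio, so the ranking favours such genes. DANCR at 34.4 FPKM and MYC at 17.1 FPKM were not silent in it. CBS, cystathionine beta-synthase of the transsulfuration pathway (chromosome 21, 44473301 to 44496472, hg19), was 28.8, 43.1, 0.0798 and 15.3 FPKM, a log2 ratio of 3.92 in the knockdown pair and 0.56 in the NTC pair. ASS1, which makes argininosuccinate for arginine synthesis (chromosome 9, 133320094 to 133376661), was 79.002, 103, 0.557 and 40.8 FPKM and had a log2 ratio of 4.75. The neuropeptide gene GAL (chromosome 11, 68451983 to 68458643) was listed at 0 in the knockdown in PBS and was 20.4 FPKM with DMS, against 57.9 and 51.02 FPKM in the NTC libraries. SNHG9, a snoRNA host RNA that shares its locus with another gene, was likewise listed at 0 and then 44.9 FPKM, with 108 and 81.97 FPKM in NTC. In these 4 genes the DMS library lay far above the PBS library of the knockdown and below both NTC libraries.

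The next genes in the order had the same shape. NPW, a neuropeptide precursor, was 41.6, 37.1, 0.272 and 15.9 FPKM, and KISS1R, the kisspeptin receptor, was 33.8, 38.3, 0.321 and 13.8 FPKM. HPDL, a mitochondrial dioxygenase-like protein, was 111, 112, 2.33 and 39.9 FPKM, and GALNT18, a glycosyltransferase, was 39.8, 49.1, 0.484 and 15.5 FPKM. The glutamine carrier SLC38A5 was 80.7, 70.2, 3.09 and 30.2 FPKM. DANCR, a long non-coding RNA with other genes at its locus, had the highest levels of the group after MYC at 499, 577, 34.4 and 241 FPKM. With DDN, RAC3, CTXN1 and LINC01604 these make the 15 genes with the highest ratio among genes of at least 5 FPKM. All 15 lay between 31.5% and 54.8% of control in DMS, and in the NTC pair their log2 ratios ran from -0.39 to 0.56 with a median of 0.02 and 8 of 15 above 0.

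The genes with the lowest ratios differed from these in the NTC pair, where all 15 lay below 0. The floor of 5 FPKM for this ranking was averaged over the knockdown libraries alone. Some of the 15 were thus low in NTC cells, such as SSTR2 at 1.30 and 0.740 FPKM in PBS and DMS. Their side of 0 there rests on few fragments, while others, such as CCL22, were well expressed. DHRS9, a short-chain dehydrogenase of retinoid and steroid metabolism, was 1.14, 0.0494, 13.5 and 2.92 FPKM and had the lowest log2 ratio, -1.88. FSCN1, the actin bundler fascin (chromosome 7, 5632436 to 5646287, hg19), was 43.2, 17.1, 280.4 and 93.6 FPKM, a ratio of -1.57 in the knockdown pair and -1.29 in the NTC pair. The chemokines CCL17 and CCL22, ligands of CCR4 that lie close together on chromosome 16, were 37.5, 7.95, 255 and 96.1 FPKM and 144, 39.99, 1044 and 436 FPKM. Their order of levels was the same in both cases, highest in the knockdown in PBS and lowest in NTC in DMS.

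MT1F, a metallothionein, was 2.59, 1.53, 21.6 and 6.12 FPKM, but it belongs to a family of near-identical genes whose reads the counting could split. LTA, the cytokine lymphotoxin alpha, was 1.74, 0.905, 14.3 and 5.47 FPKM, and JUN, a subunit of AP-1, was 3.65, 2.44, 21.005 and 8.6995 FPKM. CFP, the complement factor properdin, was 5.69, 2.197, 40.1 and 15.5 FPKM, and GNG3, a G protein gamma subunit, was 10.6, 2.41, 52.5 and 20.3 FPKM. The control-pair log2 ratios of the 15 ran from -2.10 to -0.19, with a median of -1.01. HIST4H4, NKAIN4, HRASLS2, ABHD11-AS1, STAG3 and SSTR2 complete the group.

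**Figure D2:**
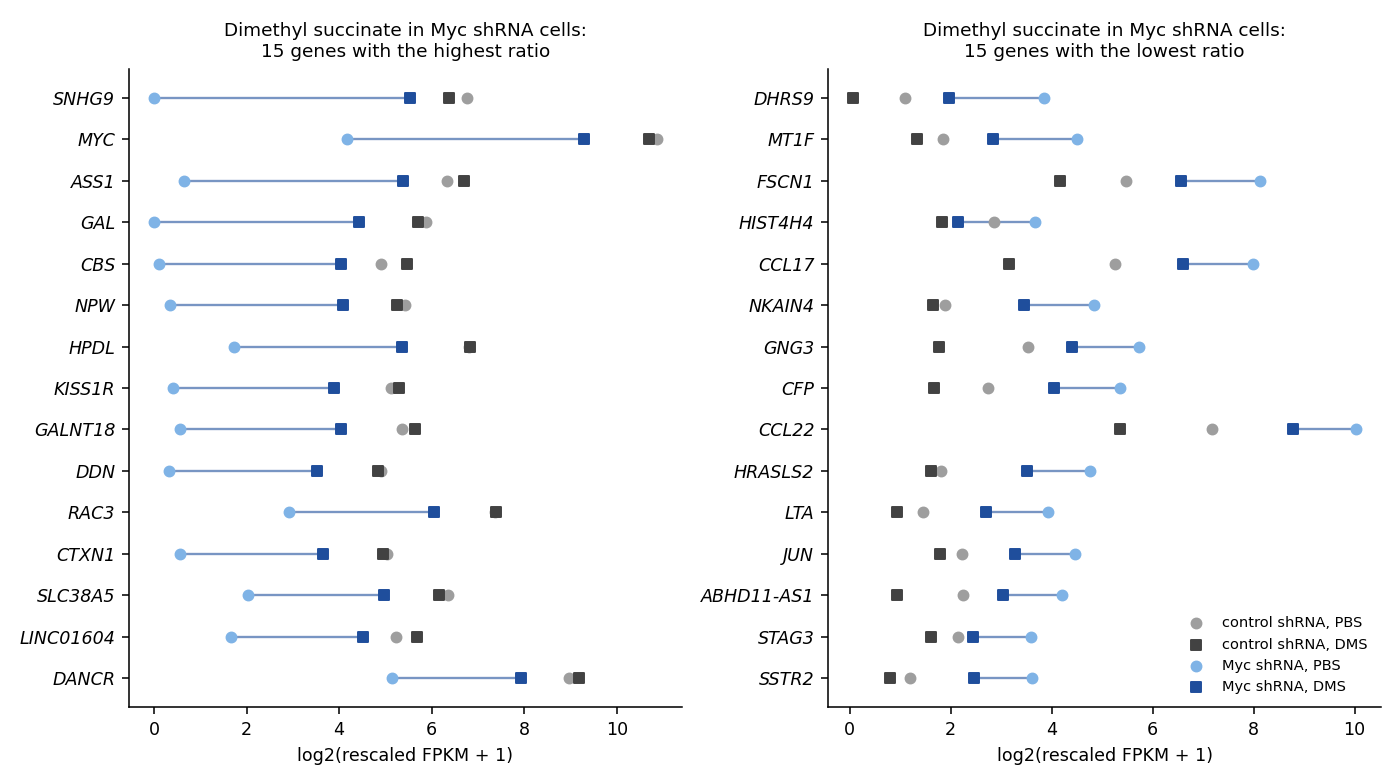
Levels as log2(rescaled FPKM + 1) of the 15 genes with the highest and the 15 with the lowest ratio of DMS over PBS in Myc shRNA cells, 1 library per point. Lines join the knockdown libraries; on the left the NTC points (grey, black) lie together above both, on the right the NTC point in DMS lies left of that in PBS.

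Genes that MYC is known to activate were higher with DMS as a group in the knockdown cells. Of 57 listed MYC-activated genes 56 were above 0 and 34 were at least 2-fold higher, with a median log2 ratio of 1.13 against 0.005 over all genes. In the NTC pair 52 of the 57 were below 0, the median was -0.10 and none reached 2-fold. PUS7, a pseudouridine synthase, was 23.3, 25.7, 1.81 and 10.6 FPKM, and NOP16, a nucleolar protein, was 172, 165, 17.3 and 71.6 FPKM. The mitochondrial chaperonin HSPD1 was 555, 489, 54.2 and 214 FPKM, and the purine synthesis enzyme PAICS was 150.4, 151, 15.3 and 60.96 FPKM. In each of the 4 the knockdown with DMS lay between the knockdown in PBS and both NTC libraries. The lowest of the list were CCND2, a D-type cyclin (17.9, 13.7, 23.1 and 18.6 FPKM), and NIP7, a ribosome assembly factor (45.4, 34.3, 16.9 and 20.6 FPKM). Of 16 listed MYC-repressed genes 12 were below 0 with DMS in the knockdown cells (median -0.43) and none reached 2-fold. In the NTC pair 9 of the 16 were below 0 (median -0.03). KLF2, a quiescence factor of lymphocytes, was 84.7, 41.9, 282 and 162 FPKM, and BTG2, an antiproliferative gene, was 98.9, 97.3, 383 and 256 FPKM.

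The E-box CACGTG, which reads the same on both strands, was searched in RefSeq promoter windows from 250 bases before to 50 after each annotated start (GRCh38.p14). It lay in 7.26% of 35116 windows of all genes, in 9.76% of windows of kept genes, in 17.6% of the 663 windows of genes at least 2-fold higher with DMS and in 34.6% of the 78 windows of MYC-activated genes (49 of 57 genes had a window). ASS1 and HSPD1 are shown because they had large ratios and hold the motif, here in capitals. A match is a description of the letters and not a shown binding site.
ASS1, chr9:130444711-130445010, plus strand: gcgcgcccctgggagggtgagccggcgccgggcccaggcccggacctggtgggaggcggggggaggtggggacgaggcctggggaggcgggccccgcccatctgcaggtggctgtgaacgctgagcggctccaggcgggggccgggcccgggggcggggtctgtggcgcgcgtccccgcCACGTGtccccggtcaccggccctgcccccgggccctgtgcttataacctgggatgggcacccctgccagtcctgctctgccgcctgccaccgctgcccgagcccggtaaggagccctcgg
HSPD1, chr2:197500225-197500524, minus strand: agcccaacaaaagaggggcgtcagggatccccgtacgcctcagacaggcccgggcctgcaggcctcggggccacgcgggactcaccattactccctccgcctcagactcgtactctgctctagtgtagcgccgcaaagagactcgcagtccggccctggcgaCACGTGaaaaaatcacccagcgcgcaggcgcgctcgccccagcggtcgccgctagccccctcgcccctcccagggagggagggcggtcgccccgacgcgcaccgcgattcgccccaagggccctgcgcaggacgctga
The match began 71 bases before the start in ASS1 and 88 bases before it in HSPD1.

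Ribosome assembly genes were higher in 47 of 50 members, 15 of them by at least 2-fold (median 0.72, NTC pair -0.12). POLR3G, a subunit of RNA polymerase III, was 16.8, 15.4, 0.603 and 8.096 FPKM, and LYAR, a nucleolar protein, was 70.6, 52.5, 4.796 and 21.7 FPKM. NLE1, an assembly factor of the large subunit, was 38.9, 41.03, 4.21 and 16.5 FPKM. Cytosolic ribosomal proteins themselves moved little, with a median log2 ratio of 0.14 (NTC pair 0.07) and 0 of 73 at 2-fold. In each pair 62 of the 73 were above 0. Of 32 tRNA synthetases and translation factors 30 were above 0 and 5 were at least 2-fold higher (median 0.53), led by the phenylalanyl-tRNA synthetase subunit FARSB at 61.5, 61.1, 7.81 and 26.1 FPKM. EIF4EBP1, the inhibitor of the cap-binding factor eIF4E, was 203, 215, 35.4 and 107 FPKM.

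**Figure D3:**
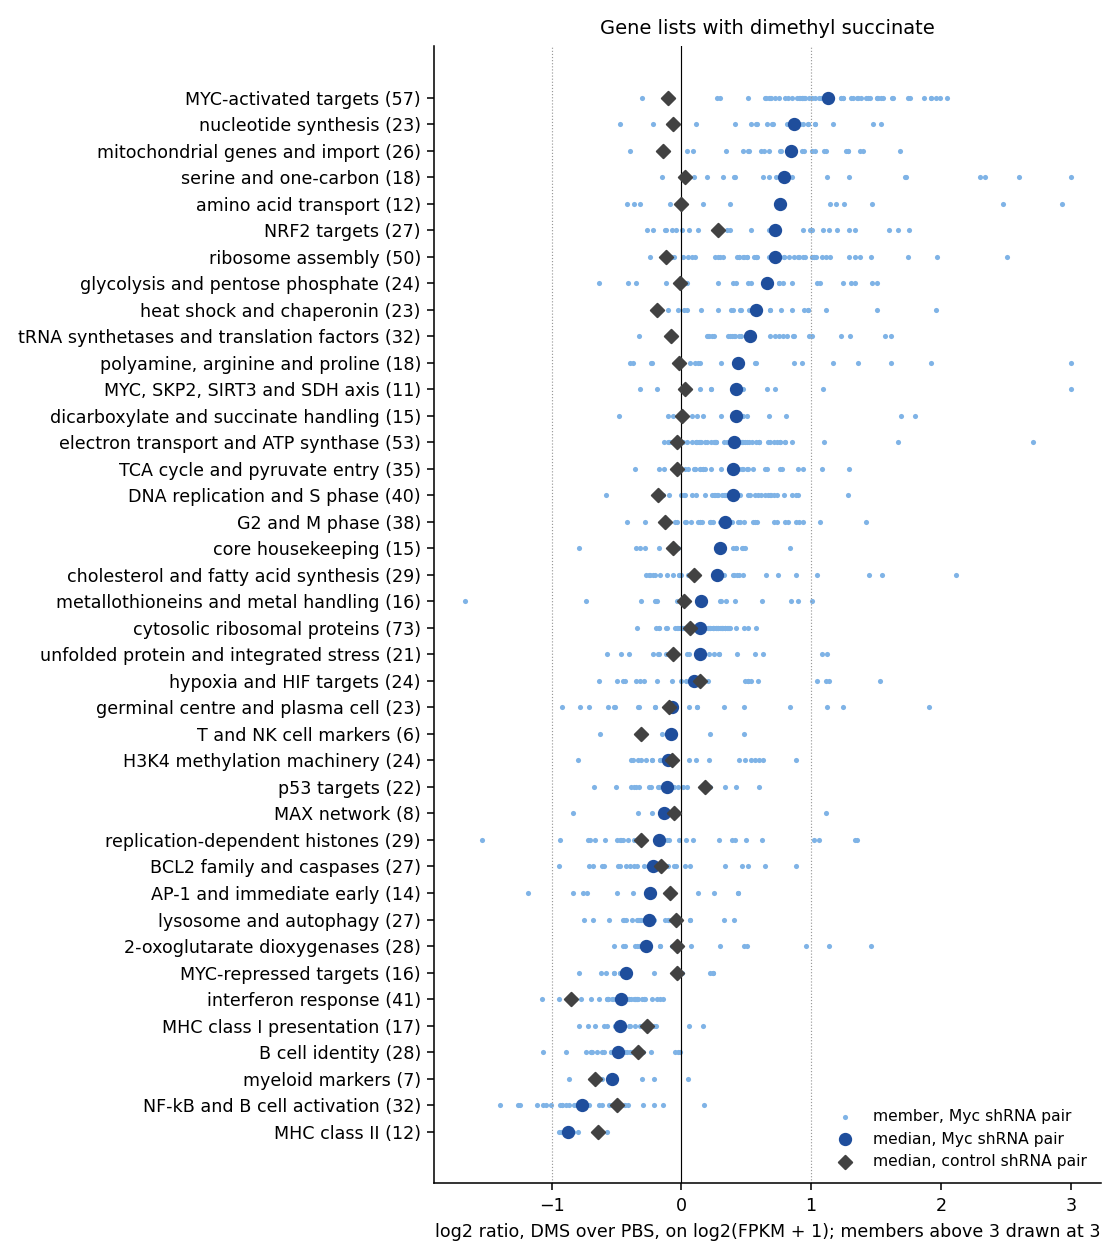
Log2 ratio of DMS over PBS for members of the gene lists (small blue points) and the list median (large blue points) in Myc shRNA cells, with the list median in NTC cells as black diamonds; the number of members kept is in brackets. MYC-activated targets have the highest median, 1.13, and MHC class II genes the lowest, -0.87.

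Serine and one-carbon genes, which feed methyl groups and purine carbon, were higher in 17 of 18 members and by at least 2-fold in 8 (median 0.79, NTC pair 0.03). The serine synthesis enzymes PHGDH and PSAT1 were 122, 144, 10.7 and 58.3 FPKM and 69.9, 69.5, 4.12 and 30.04 FPKM. MTHFD1L, which releases formate from mitochondria, was 31.1, 27.1, 1.23 and 10.002 FPKM. In these 3 the knockdown with DMS lay between the knockdown in PBS and both NTC libraries. FPGS, which adds glutamate to folates, differed less at 136, 126, 67.5 and 77.6 FPKM.

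Nucleotide synthesis genes were above 0 in 21 of 23 members, 5 by at least 2-fold (median 0.87, NTC pair -0.06). IMPDH2, the gate to guanine nucleotides, was 227, 292, 45.04 and 133 FPKM, and PPAT, the first enzyme of purine synthesis, was 25.4, 23.4, 3.201 and 10.7 FPKM. The salvage kinase DCK went the other way at 22.7, 18.2, 28.4 and 20.2 FPKM, as did RRM2, a subunit of ribonucleotide reductase, at 41.4, 36.9, 22.99 and 19.6 FPKM. Of the polyamine, arginine and proline list 5 of 18 were at least 2-fold higher (median 0.44). The proline enzyme PYCR1 was 179, 182, 24.1 and 75.96 FPKM, the spermidine synthase SRM 304, 270.03, 26.6 and 104 FPKM and the ornithine decarboxylase ODC1 385, 344, 66.9 and 173 FPKM. SAT1, which acetylates polyamines for export, was lower in DMS in both pairs, at 24.8, 11.2, 169 and 128 FPKM.

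Of 12 amino acid carriers 6 were at least 2-fold higher and 4 were below 0 (median 0.76). SLC7A5 and SLC3A2, the chains of the large neutral amino acid exchanger, were 159, 154, 10.2 and 61.6 FPKM and 134, 137, 26.2 and 63.8 FPKM. SLC7A1, a cationic amino acid carrier, was 28.9, 29.1, 3.61 and 11.8 FPKM. SLC38A1, a glutamine carrier, was lower with DMS at 46.05, 37.3, 61.4 and 45.6 FPKM. The carriers of 1 family thus lay on both sides, since SLC38A5 had one of the highest ratios of all genes.

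Genes of mitochondrial import and genome upkeep were above 0 in 25 of 26 members and 2-fold higher in 10 (median 0.84, NTC pair -0.14). TOMM40, the pore of the outer membrane, was 292, 242, 33.3 and 109 FPKM, and GRPEL1, a cofactor of the mitochondrial HSP70, was 115, 104, 19.6 and 53.4 FPKM. Electron transport and ATP synthase genes were above 0 in 48 of 53, but 3 reached 2-fold (median 0.41). These were NDUFAF2, an assembly factor of complex I (179, 198, 12.2 and 84.8 FPKM), ATP5G1, a c-ring subunit of ATP synthase (901, 761, 108 and 345 FPKM), and cytochrome c, CYCS (57.1, 50.7, 11.9 and 26.6 FPKM). Of 23 heat shock and chaperonin genes 21 were above 0 and 3 were 2-fold higher, among them HSP90AB1, a cytosolic HSP90, at 1022, 915, 217 and 472 FPKM. In the NTC pair 21 of the 23 were below 0 (median -0.18).

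Of 35 genes of the tricarboxylic acid cycle and pyruvate entry 31 were above 0 and 2 were 2-fold higher (median 0.40, NTC pair -0.03). The 2 were the cytosolic malic enzyme ME1 (6.24, 12.04, 2.01 and 6.35 FPKM) and the aspartate aminotransferase GOT2 (165, 169, 40.6 and 86.9 FPKM). The malate dehydrogenase MDH2, at 302, 297, 82.1 and 158 FPKM, had a log2 ratio of 0.94 and did not reach 2-fold. PCK2, the mitochondrial PEP carboxykinase, was 21.6, 23.03, 40.9 and 31.7 FPKM and lower with DMS. The succinate dehydrogenase subunits had log2 ratios of 0.48 (SDHA), 0.66 (SDHB), 0.14 (SDHC) and 0.23 (SDHD) in the knockdown pair. In the NTC pair these were 0.07, 0.03, 0.11 and -0.21. The assembly factor SDHAF3 was the only one of 4 listed assembly factors to reach 2-fold, at a ratio of 1.09.

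Of 15 carriers and enzymes of dicarboxylate and succinate handling 2 were 2-fold higher (median 0.42, NTC pair 0.009). SLC25A10, the mitochondrial dicarboxylate carrier that exchanges succinate and malate, was 23.1, 27.5, 2.15 and 9.98 FPKM. SLC16A1, the monocarboxylate carrier MCT1, was 43.4, 43.5, 5.83 and 21.1 FPKM. ALDH5A1, which makes succinate from succinic semialdehyde, was 9.29, 9.81, 2.94 and 5.2998 FPKM, and ABAT, the transaminase before it, was 5.98, 5.51, 21.6 and 15.1 FPKM and lower with DMS. The esterase gene ESD was 97.1, 98.9, 33.8 and 60.03 FPKM and the carboxylesterase gene CES2 10.97, 11.3, 14.3 and 13.3 FPKM. In the NTC pair the 2 genes that reached 2-fold in the knockdown pair, SLC25A10 and SLC16A1, had log2 ratios of 0.24 and 0.01.

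Glycolysis and pentose phosphate genes were above 0 in 20 of 24, with 7 at least 2-fold higher (median 0.66). The glucose phosphate isomerase GPI was 185, 179, 32.6 and 94.1 FPKM and the muscle-type phosphofructokinase PFKM 80.9, 94.9, 16.3 and 46.8 FPKM. The glucose transporter SLC2A3 was lower with DMS in both pairs, at 3.73, 2.39, 20.5 and 12.9 FPKM. Of 29 cholesterol and fatty acid genes 4 were 2-fold higher (median 0.27), led by the desaturase SCD at 131, 151, 14.01 and 63.9 FPKM and DHCR7, the last enzyme of cholesterol synthesis, at 55.6, 66.4, 9.97 and 30.95 FPKM.

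Proliferation genes lay above 0 with few at 2-fold. Of 40 genes of DNA replication 36 were above 0 and 1 reached 2-fold, POLD2, a subunit of DNA polymerase delta, at 200.5, 198, 37.5 and 92.7 FPKM (list median 0.40, NTC pair -0.18). Of 38 genes of G2 and mitosis 33 were above 0 and 2 reached 2-fold (median 0.34), the checkpoint gene MAD2L1 at 73.1, 65.5, 10.6 and 30.1 FPKM and CKS2, a subunit of cyclin-dependent kinases, at 634, 557, 151 and 318 FPKM. MKI67, the proliferation marker Ki-67, was 25.1, 21.8, 17.7 and 14.4 FPKM and below 0. In the germinal centre and plasma cell list 14 of 23 members were below 0 and 3 were 2-fold higher, with a median of -0.07 (NTC pair -0.10). The 3 highest were FKBP11, a chaperone of the endoplasmic reticulum, at 196, 196, 22.8 and 88.2 FPKM, the syndecan SDC1 at 8.43, 7.75, 0.823 and 3.33 FPKM and the transcription factor XBP1 at 85.3, 105, 25.4 and 56.5 FPKM.

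NRF2 target genes were above 0 in both pairs, and their NTC median was the highest of the 42 lists. In the knockdown pair 21 of 27 members were above 0 and 10 were at least 2-fold higher (median 0.72). In the NTC pair 24 of 27 were above 0, 2 were 2-fold higher and the median was 0.28. NQO1, the quinone reductase, named here for its values, was 12.2, 27.2, 14.03 and 33.6 FPKM, so both DMS libraries lay above both PBS libraries. FIGF,PIR, a feature that joins overlapping genes of which PIR encodes the iron-binding protein pirin, was 2.29, 8.62, 1.39 and 6.59 FPKM. Both DMS libraries again lay above both PBS libraries, here with NTC in DMS highest. For ME1, the cytosolic malic enzyme, the levels were 6.24, 12.04, 2.01 and 6.35 FPKM, the order of FIGF,PIR. Its knockdown library in DMS lay only just above NTC in PBS.

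Other members varied in the order of the 4 libraries. TXN, thioredoxin, was 538, 654, 98.6 and 335 FPKM, SRXN1, sulfiredoxin, was 20.4, 25.4, 3.89997 and 13.8 FPKM and TKT, transketolase, was 274, 318, 63.9 and 163 FPKM. In these 3 the knockdown with DMS stayed below both NTC libraries. TXNRD1, thioredoxin reductase, was 55.8, 70.9, 23.5 and 51.3 FPKM, and FTL, the ferritin light chain, 1812, 2605, 1115 and 2247 FPKM. HMOX1, haem oxygenase, was 14.1, 21.8, 44.2 and 41.99 FPKM, FTH1, the ferritin heavy chain, 691, 1018, 1315 and 1319 FPKM, and the cystine carrier SLC7A11 1.12, 1.68, 0.667 and 1.16 FPKM. HMOX1 and FTH1 were thus higher with DMS in NTC cells and near equal in the knockdown pair. FTL and SLC7A11 had both DMS libraries above both PBS libraries, SLC7A11 at low levels. NFE2L2, the gene of NRF2, was below 0 in both pairs, at 11.4, 9.45, 13.4 and 11.4 FPKM. HMOX1, FTH1, TXNRD1, FTL, ME1 and SLC7A11 were also picked after their values were seen.

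**Figure D4:**
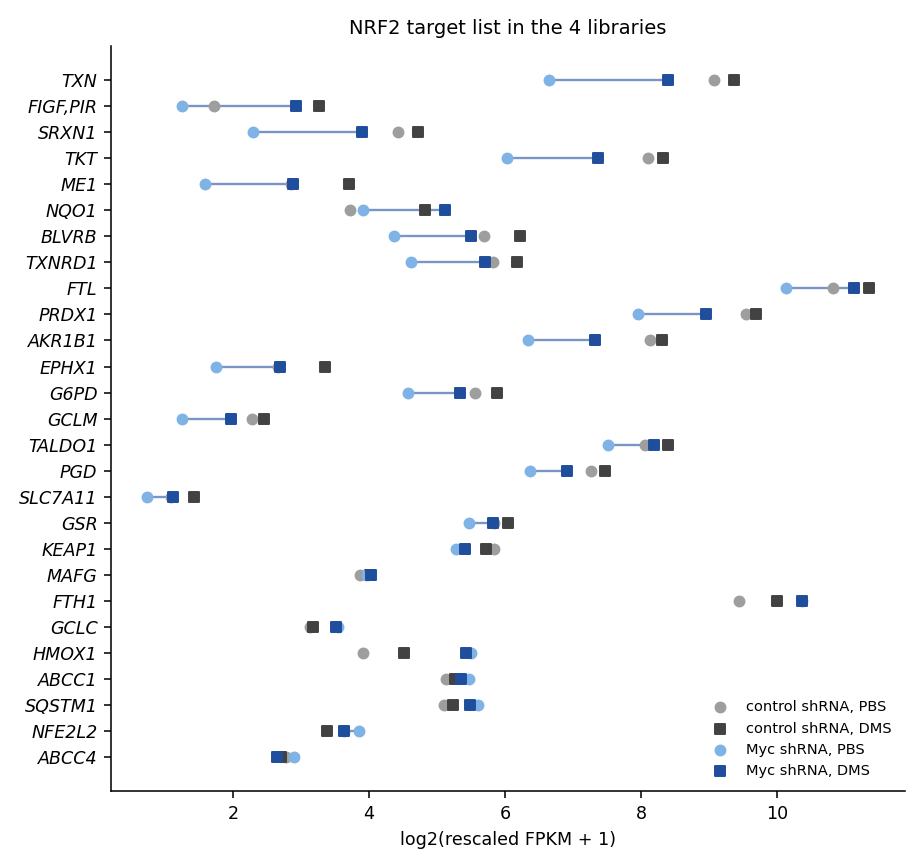
Levels as log2(rescaled FPKM + 1) of the 27 NRF2 targets kept, in order of the ratio in Myc shRNA cells, 1 library per point. Lines join the knockdown libraries. For NQO1, FIGF,PIR, ME1, FTL and SLC7A11 both DMS points (squares) lie right of both PBS points (circles). The other members were not counted for this order.

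The antioxidant response element core, written TGACNNNGC and searched on both strands, lay in 13.3% of all promoter windows, in 14.8% of windows of kept genes and in 31.0% of the 29 windows of NRF2 targets (20 of 27 had a window). It begins with the same letters as AP-1 and ATF sites and can overlap them. ME1 and TXNRD1 are shown because each was 2-fold higher in the knockdown pair, above 0 in the NTC pair, and holds 2 matches, in capitals.
ME1, chr6:83431002-83431301, minus strand: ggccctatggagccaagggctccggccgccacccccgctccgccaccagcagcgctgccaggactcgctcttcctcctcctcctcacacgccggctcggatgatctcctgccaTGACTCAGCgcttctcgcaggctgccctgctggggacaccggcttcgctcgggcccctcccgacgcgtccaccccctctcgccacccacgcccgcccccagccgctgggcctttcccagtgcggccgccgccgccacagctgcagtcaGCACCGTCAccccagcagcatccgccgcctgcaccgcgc
TXNRD1, chr12:104215529-104215828, plus strand: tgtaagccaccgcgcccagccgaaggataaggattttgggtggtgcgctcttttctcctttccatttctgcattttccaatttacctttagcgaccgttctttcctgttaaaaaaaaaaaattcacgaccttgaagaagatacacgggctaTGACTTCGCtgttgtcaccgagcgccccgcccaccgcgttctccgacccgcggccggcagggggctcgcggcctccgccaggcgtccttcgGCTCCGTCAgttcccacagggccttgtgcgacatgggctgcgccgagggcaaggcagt
In ME1 the matches began 137 bases before and 11 bases after the start, and in this window of TXNRD1 99 and 8 bases before it.

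Hypoxia genes, whose factor HIF is degraded through 2-oxoglutarate dioxygenases, showed no common direction. Of 24 members 14 were above 0 and 4 were 2-fold higher, with a median of 0.10 in the knockdown pair and 0.15 in the NTC pair. The 4 were the cytokine MIF (3689, 3874, 658 and 1901 FPKM), the prolyl hydroxylase EGLN3 (15.6, 19.5, 4.92 and 12.01 FPKM), the MAX partner MXI1 (10.2, 12.9, 2.48 and 6.55 FPKM) and the growth factor VEGFA (13.2, 15.4, 5.1997 and 11.8 FPKM). SLC2A3 and BHLHE40, a transcription factor at 26.8, 18.8, 90.7 and 63.98 FPKM, lay below 0. The 28 listed 2-oxoglutarate dioxygenases had a median of -0.28, with 21 below 0. ALKBH2, a DNA repair dioxygenase, was 2-fold higher at 54.6, 54.5, 8.12 and 24.2 FPKM, while the histone demethylases KDM4C and KDM2B were 16.6, 17.2, 42.5 and 29.3 FPKM and 43.5, 35.99, 62.8 and 46.3 FPKM.

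The study also measured H3K4 trimethylation, and the mRNAs of its machinery varied around 0. None of 24 reached 2-fold, 14 were below 0 and the median was -0.10 (NTC pair -0.08). WDR5, the shared core of the methyltransferase complexes, had the highest ratio at 94.5, 89.1, 24.6 and 46.4 FPKM, followed by PAXIP1 (13.7, 14.3, 3.99 and 6.69 FPKM) and MEN1, menin (29.8, 32.1, 15.4 and 23.9 FPKM). KDM1B, an H3K4 demethylase, had the lowest at 4.32, 3.22, 14.2 and 7.73 FPKM, and the methyltransferase SETD1B was 9.13, 8.51, 12.3 and 9.19 FPKM.

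MHC class II genes were lower with DMS in 12 of 12 members in both pairs, none by 2-fold, with medians of -0.87 in the knockdown pair and -0.64 in the NTC pair. HLA-DPB1, a beta chain, was 62.1, 37.2, 307 and 159 FPKM, and HLA-DQB1, another, 71.8, 48.8, 267 and 139.998 FPKM. HLA-DMB, which helps load peptides, was 62.5, 35.98, 298 and 160.2 FPKM. CIITA, the master activator of these genes, was 31.3, 20.9, 128 and 68.996 FPKM, and it is outside the 4 lowest of the list. The ratios of the 12 lay close together, from -0.94 to -0.57. Class II chains resemble each other in sequence, so the split of reads among them is uncertain. Of 17 class I genes 15 were below 0 (median -0.47), and 16 of 17 were in the NTC pair (median -0.26). HLA-E was at 114, 62.6, 592 and 343 FPKM and its transactivator NLRC5 at 21.8, 18.01, 71.8 and 47.2 FPKM.

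In the NF-kB and B cell activation list 31 of 32 members were below 0, 7 of them lower by at least 2-fold (median -0.76, NTC pair -0.50 with 6 lower). Beside CCL17, CCL22 and LTA, SLAMF1, a costimulatory receptor, was 5.02, 2.79, 28.9 and 12.8 FPKM. The exception was NFKBIB, an inhibitor of NF-kB, at 46.2, 37.2, 22.5 and 25.6 FPKM. Of 14 AP-1 and immediate early genes 10 were below 0, with JUNB at 65.99, 51.4, 207 and 125 FPKM and EGR2, a zinc finger factor, at 1.45, 0.461, 4.19 and 1.92 FPKM. B cell identity genes were below 0 in 28 of 28 members in both pairs (medians -0.49 and -0.34), 1 of them by 2-fold. That gene was CXCR5, the receptor that guides B cells to follicles, at 2.77, 1.11, 19.8 and 8.95 FPKM, and the inhibitory receptor CD22 was 71.2, 47.4, 261 and 141 FPKM.

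Interferon genes were lower with DMS in 41 of 41 members of the knockdown pair, with a median log2 ratio of -0.46, but only 1 reached 2-fold. In the NTC pair the median was -0.85, 40 of 41 were below 0 and 11 were at least 2-fold lower. GBP1, a guanylate-binding protein and the gene that reached 2-fold, was 2.28, 0.8097, 19.8 and 8.898 FPKM. LGALS3BP, a secreted glycoprotein, was 23.9, 10.8, 209.9 and 109 FPKM, and ZBP1, a sensor of nucleic acids, was 25.9, 9.13, 206 and 120.04 FPKM. IFI27 was 15.8, 0.574, 182 and 102 FPKM, a ratio of -0.82 in the knockdown pair and -3.42 in the NTC pair. At the upper end SAMD9, an antiviral factor, was 4.42, 2.38, 22.8 and 20.6 FPKM and BST2, tetherin, 312, 289, 732 and 653 FPKM. In each of these 6 both knockdown libraries lay above both NTC libraries. The difference between the pairs was not tested, since it has no residual degree of freedom with 1 library per group.

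The interferon-stimulated response element, written as GAAA, any 2 letters and GAAA, and searched on both strands, lay in 3.57% of all windows, in 3.08% of windows of kept genes and in 54.2% of the 48 windows of interferon genes (32 of 41 had a window). LGALS3BP and GBP1 are shown as the genes of the list with the lowest ratios, with the match in capitals.
LGALS3BP, chr17:78979874-78980173, minus strand: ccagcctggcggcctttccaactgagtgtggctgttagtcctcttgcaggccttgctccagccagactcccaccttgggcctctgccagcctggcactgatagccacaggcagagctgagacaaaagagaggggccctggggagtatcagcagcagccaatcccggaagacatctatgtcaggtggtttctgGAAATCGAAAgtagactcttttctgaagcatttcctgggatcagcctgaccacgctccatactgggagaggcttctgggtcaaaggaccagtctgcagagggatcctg
GBP1, chr1:89065159-89065458, minus strand: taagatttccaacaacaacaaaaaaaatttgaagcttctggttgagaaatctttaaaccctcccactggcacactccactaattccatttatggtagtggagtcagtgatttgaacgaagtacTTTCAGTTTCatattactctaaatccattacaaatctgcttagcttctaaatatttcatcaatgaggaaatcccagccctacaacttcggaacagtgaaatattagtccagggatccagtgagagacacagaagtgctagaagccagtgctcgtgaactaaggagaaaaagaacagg
The match began 58 bases before the start in LGALS3BP and 127 bases before it in GBP1.

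Markers of other cell types were measured beside the immune genes. The summed level of 12 myeloid markers was 128, 92.7, 267 and 198 FPKM, and 3 of the 12, S100A8, S100A9 and FCGR3A, were listed at 0 in each library. The most abundant of them in NTC cells, AIF1, an actin-binding protein, was 97.9, 76.2, 74.3 and 76.98 FPKM, a log2 ratio of 0.05 in the knockdown pair. LYZ, lysozyme, was 8.31, 4.19, 48.7 and 33.3 FPKM, CD68, a lysosomal glycoprotein, 9.33, 4.45, 58.02 and 31.4 FPKM and ITGAM, an integrin chain, 8.13, 3.26, 67.01 and 41.7 FPKM. CD14 and CSF1R, which define monocytes, were at or below 0.219 FPKM in every library. The sum of 12 T and NK markers was 30.9, 25.4, 34.02 and 29.9 FPKM, most of it from LCK, a kinase of lymphocytes (12.3, 12.5, 13.02 and 12.02 FPKM), and CD3E, a T cell receptor chain (8.23, 6.79, 6.39 and 6.15 FPKM). Of 7 epithelial and packaging cell markers KRT8 and KRT18 were at 0 in each library, while EPCAM, an adhesion protein, was 4.795, 4.69, 0.808 and 2.82 FPKM and the tubulin TUBB3 275, 332, 24.4 and 143 FPKM, both 2-fold higher with DMS in the knockdown pair. The third of that list to be kept, the filament protein VIM, was lower with DMS at 439, 323, 998 and 597 FPKM, and the sum of the 7 was 719, 660, 1024 and 743 FPKM. The sum of 7 fibroblast and erythroid markers was 3.26, 3.61, 15.3 and 10.3 FPKM. The part of these markers in the immune ratios was not tested.

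Genes of cell death and of p53 stayed under 2-fold in the knockdown pair. Of 27 genes of the BCL2 family and caspases 20 were below 0 (median -0.22, NTC pair -0.15), with log2 ratios from -0.94 to 0.88. BCL2A1, a survival gene, was 12.3, 4.20, 68.5 and 44.6 FPKM, a ratio of -0.61 in the knockdown pair and -1.35 in the NTC pair. HRK, a BH3-only activator of death, was 1.801, 0.828, 11.8 and 5.66 FPKM, and the survival genes BIRC3 and BCL2L1 were 5.01, 2.46, 29.6 and 17.8 FPKM and 21.9, 15.2, 65.1 and 40.3 FPKM. BIRC5, survivin, was higher at 61.2, 64.001, 15.6 and 29.7 FPKM, as was BCL2L11, the BH3-only protein BIM, at 31.5, 32.8, 13.1 and 19.2 FPKM. Among 22 p53 targets none reached 2-fold and the median was -0.11 (NTC pair 0.18). CDKN1A, the inhibitor p21, was 65.2, 80.6, 60.4 and 70.6 FPKM. Integrated stress genes had a median of 0.14, with 2 of 21 at 2-fold, XBP1 and the asparagine synthetase ASNS (34.4, 41.1, 9.49 and 21.2 FPKM).

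Set gene by gene against the NTC pair, the higher and the lower genes behaved differently. Of the 552 genes at least 2-fold higher in the knockdown pair, 36 (6.52%) had a log2 ratio of at least 0.5 in the NTC pair, 513 (92.9%) lay between -0.5 and 0.5 and 3 lay at -0.5 or below. Of the 51 genes at least 2-fold lower, 30 (58.8%) had a ratio of -0.5 or below in the NTC pair, 20 lay between and 1 lay at 0.5 or above. Over all kept genes, 1.72% had a ratio of at least 0.5 and 3.01% one of -0.5 or below in the NTC pair. Counted at 0.5 in both pairs, 95 genes were higher, which is 5.42% of the 1754 in the knockdown pair and 49.5% of the 192 in the NTC pair. Lower in both were 228 genes, 26.1% of the 875 in the knockdown pair (7.82% of all genes) and 67.7% of the 337 in the NTC pair. Taken over genes, none of which replicates another, Pearson's r between the pairs was 0.40 and Spearman's rho 0.41.

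**Figure D5:**
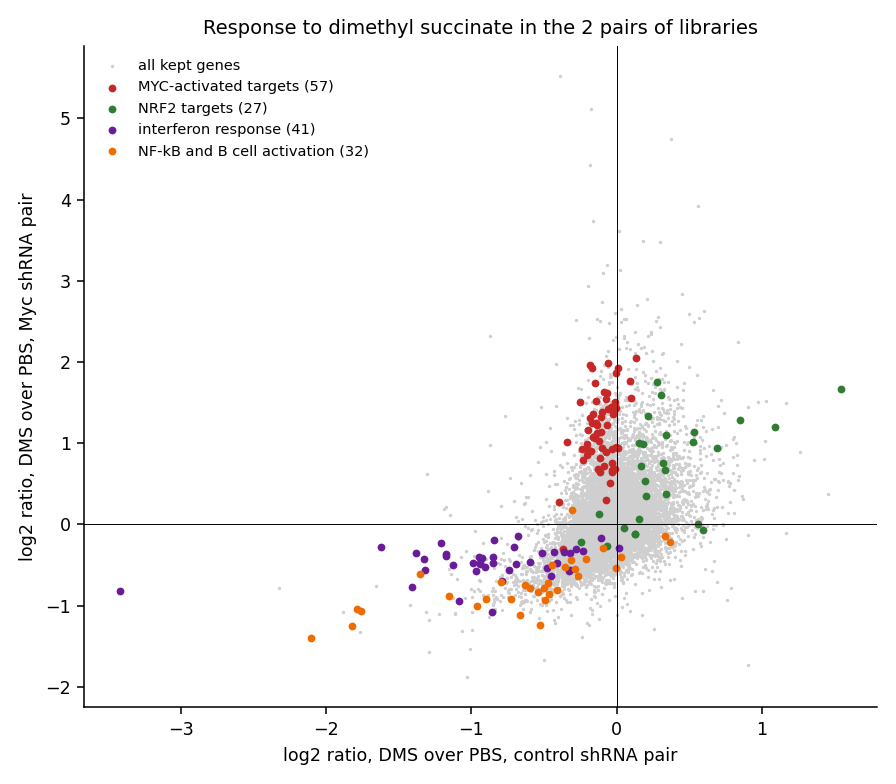
Log2 ratio of DMS over PBS in NTC cells (horizontal) and in Myc shRNA cells (vertical), 1 point per gene, with 4 lists in colour. MYC-activated genes lie near 0 on the horizontal axis and up to 2.04 on the vertical one, interferon and NF-kB genes lie mostly below 0 on both (1 of 41 and 3 of 32 lie above 0 in NTC cells, 0 of 41 and 1 of 32 in Myc shRNA cells), and NRF2 targets lie mostly above 0 on both.

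The levels of the genes in the 2 comparisons with the knockdown can be set beside these, with the caution that each shares a library with the DMS comparison. Myc shRNA left 1610 genes at least 2-fold higher (14.4%) and 1898 lower (17%) in PBS, and 1077 higher (9.63%) and 398 lower (3.56%) in DMS. The MYC-activated list had a median log2 ratio of knockdown over control of -2.26 in PBS and -1.03 in DMS, and the ribosome assembly list -1.65 and -0.83. For MHC class II the medians were 1.98 and 1.79, and for interferon genes 2.56 and 3.03. No test is drawn from these, because the libraries are shared.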

How the data were processed

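RNA-seq of 4 CA46 libraries (1 per group) was analysed. TopHat2 2.1.0, Cuffdiff 2.2.1, Bowtie2 2.2.6, MACS 1.4.2, fastp and bcl2fastq, and the builds hg19 and dm6, are named without role or order per the submitters' processing notes. For annotation, strand setting and depth nothing is given in the sources used here. The values the authors deposited are FPKM for 31016 features per library; their titles speak of read counts, and the unit was read from the fractional values and their steps. Per the file headers the shMyc+DMS column is a second value and the other 3 are first values, so the tables may have been normalised in separate runs; the rescaling below sets 1 factor per library.

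Unnamed features (3919) and 2037 small RNA symbols were left out, FPKM was summed over features of a symbol (691 symbols), and 515 features joining overlapping genes were kept. Names that had become dates (30 features) are not printed. Rescaling used trimmed-mean factors of 1.05, 1.04, 0.953 and 0.962 (trims of 30% of ratios and 5% of levels at each end), and 11187 genes averaging 1 FPKM or more were kept. With 1 library per group the log2 ratios have no test. In R 4.3.3, limma 3.58.1 was fitted to log2(FPKM + 1) of the 4 libraries, after it was tested on simulated data. Virus and medium were its terms, with an intensity trend. The fit leaves 1 residual degree of freedom and 5.06 prior ones. With a pseudocount of 5 the prior ones were 14.4, so the error estimates of that fit rest mostly on spread shared across genes. The residual of this fit is the difference between the DMS ratios of the 2 pairs. It holds library spread, which may be technical since no separate cultures are named. Any difference of response between the viruses enters it too, so the limma p-values are not set against library spread alone. For MYC, with log2 ratios of 5.12 and -0.18 in the 2 pairs, the SE was 1.09. Precision is limited by counting: a 2 kb gene at 5 FPKM has an estimated counting error of 6.23 to 6.64% (CV), a lower bound since PCR copies are not independent molecules.

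The genes named are MYC and its study axis, the 15 highest and 15 lowest ratios among genes averaging 5 FPKM or more in the knockdown libraries, the 4 highest and 4 lowest of each list described, the genes the limma fit calls and the opposite genes; exceptions are marked. The members and lists were chosen with earlier results of these data known. Alternatives were other scalings, pseudocounts, filters, a 1.5-fold threshold, the highest feature per symbol and no intensity trend. Analyses used Python 3.11.15, pandas 2.3.3, numpy 2.4.6 and matplotlib 3.10.9. Promoter sequences and their coordinates are from RefSeq (GRCh38.p14); gene coordinates are those of the deposited tables (hg19, counted from 1).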

Additional observations from a re-analysis of the deposited data

Results flagged for a closer look

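Some genes had log2 ratios of at least 0.5 in size with opposite signs in the knockdown pair and the NTC pair, 10 higher and 8 lower in the knockdown cells (0.0894% and 0.0715% of 11187 genes). The differences were not tested, since an interaction has no residual degree of freedom with 1 library per group. Values follow in the order NTC in PBS, NTC in DMS, Myc shRNA in PBS and Myc shRNA in DMS for the 10 of these genes that averaged 5 FPKM or more.

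Higher with DMS in the knockdown cells and lower in the NTC cells were 6 genes. IGLL1, the surrogate light chain of precursor B cells, was 18.5, 9.67, 0.0668 and 4.33 FPKM, a difference of log2 ratios of 3.19. HIST1H4I, a histone H4 gene with near-identical copies and another gene at its locus, was 22.7, 12.9, 2.97 and 9.02 FPKM (difference 2.103). RGCC, a cell cycle regulator, was 45.3, 31.2, 8.14 and 16.6 FPKM (difference 1.47), LOC730202 was 9.27, 6.06, 1.89 and 3.92 FPKM (1.31) and TMEM238 was 17.6, 11.3, 3.64 and 6.09 FPKM (1.21). ANKRD37, a hypoxia target that shares its locus with another gene, was 4.13, 2.25, 6.96 and 10.4 FPKM (difference 1.17). In 5 of the 6, ANKRD37 excepted, the knockdown library with DMS lay below both NTC libraries.

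Lower in the knockdown cells and higher in the NTC cells were 4 genes. HIST1H4E, another histone H4 gene, was 3.91, 7.31, 13.3 and 6.46 FPKM, a difference of log2 ratios of -1.69. The non-coding LINC01358 was 8.08, 12.7, 61.5 and 34.5 FPKM (difference -1.41), the antisense RNA MRVI1-AS1 2.22, 3.68, 18.5 and 9.99 FPKM (-1.36) and ALG14, a subunit of an N-glycosylation enzyme, 11.2, 17.7, 8.75 and 5.64 FPKM (-1.17).

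Features with no gene name, which no comparison uses, took 25.2% of summed FPKM in the knockdown in PBS and 22.4% in the knockdown in DMS, above the 15.7% and 14.3% of the NTC libraries in PBS and DMS. One unnamed feature took 20.9% and 17.2% of the sum in the knockdown libraries, against 10.6% and 9.01% in the NTC libraries.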

How the results depend on the processing

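No paired analysis was possible because each group has 1 library and the labels carry no replicate numbers; for the same reason no replicate could be left out. Against 552 genes at least 2-fold higher and 51 lower in the knockdown pair, a pseudocount of 0.1 gave 96 lower, a pseudocount of 5 gave 247 higher and 12 lower, a filter at a mean of 5 FPKM gave 31 lower, and a 1.5-fold threshold gave 1444 higher and 562 lower. The limma count of 0 for the medium became 82 that rose and 75 that fell with a pseudocount of 5, and stayed 0 under its other alternatives. Of the genes with opposite ratios (10 and 8), 2 and 0 were left with a pseudocount of 5. The causes of these moves were not tested. Of 42 list medians 41 kept their sign under every alternative run; metallothioneins and metal handling went from 0.15 to -0.02 with the filter at 5 FPKM. For single named genes 43 of the alternative values changed their side of 2-fold or, near 0, their sign, and 1676 did not. Differences that low genes show are limited by depth, since few fragments lie behind them.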
